A study of Mus musculus with 20 samples.

Results

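The genes described here are those of MHC class II presentation, taken by symbol from the gene count table of a mouse kidney tumor study. They are 7 of the 54532 genes in that table, and were chosen for their role. H2-Aa, H2-Ab1 and H2-Eb1 encode chains of class II molecules, Cd74 encodes their invariant chain, H2-DMa and H2-DMb1 encode the peptide exchange factor H2-DM, and Ciita encodes the transactivator of the class II genes. All 7 passed the filter for low counts.

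RNA was sequenced from 10 tumors and 10 normal kidneys of C57BL/6 mice that carried a Pax8-driven Cre and one copy of a Lox-Stop-Lox Cas9 cassette at Rosa26. An adeno-associated virus without Cre, injected into the kidney of young adult animals, delivered sgRNAs against Vhl, Pbrm1, Keap1 and Tsc1, so that both groups came from treated animals. By the study's methods tumors and normal kidneys were collected from a cohort of 10 mice, so the 20 libraries share animals, but which tumor and kidney share a mouse is not given in the sources used here, and the tests below treat the groups as independent. Cas9 was thus confined to the Pax8 lineage, which in the kidney includes the tubular epithelium, and leukocytes in either tissue were not targets of the editing by design. The age at collection and the sex of each animal are not given in the sources used here. Tissue was pulverized whole and the RNA selected by its poly(A) tail, so each value below is an average over all cells of a piece of tissue. Fewer cells of a type and less RNA per cell cannot be told apart in such data. Total counts lay between 14737516 and 26679704 per library.

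Class II molecules are pairs of an alpha and a beta chain that display peptides from endosomes to CD4+ T cells. New pairs are held by the invariant chain, which endosomal proteases trim to a short fragment, and H2-DM then swaps that fragment for a peptide. Dendritic cells, B cells and macrophages make class II molecules at rest or when activated, and epithelial cells, renal tubule cells included, can make them after exposure to interferon gamma, which switches on Ciita. C57BL/6 mice display only the I-A molecule, the pair of H2-Aa and H2-Ab1, because their gene for the alpha chain of I-E is disabled and H2-Eb1 has no partner.

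Ciita does not bind DNA itself but joins a complex of RFX, CREB and NF-Y proteins on short promoter boxes, known as X and Y, that the class II genes share. The stretches are shown because H2-Eb1 and H2-DMb1, which share both box cores, differed in whether they were called. RefSeq promoter windows of 300 bases on build GRCm38.p6 were available for 4 members, H2-Aa, H2-Eb1, H2-DMa and H2-DMb1, and for 4 other class II genes. A search on both strands covered the Y box core TGATTGG, the X1 box core ACNGATG and the cyclic AMP response element TGACGTCA, which is one form of the X2 box. Capitals mark matches, and each stretch has 87 bases around the Y box core, read 5′ to 3′ on the strand of the gene.
H2-Aa: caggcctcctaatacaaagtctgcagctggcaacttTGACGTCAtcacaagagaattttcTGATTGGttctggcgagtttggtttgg
H2-Eb1: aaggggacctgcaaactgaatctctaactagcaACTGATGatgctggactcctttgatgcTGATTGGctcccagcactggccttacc
H2-DMb1: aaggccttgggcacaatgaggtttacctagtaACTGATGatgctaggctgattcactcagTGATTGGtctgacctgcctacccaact
H2-DMb2: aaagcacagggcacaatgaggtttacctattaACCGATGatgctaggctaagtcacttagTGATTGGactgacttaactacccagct
H2-Ob: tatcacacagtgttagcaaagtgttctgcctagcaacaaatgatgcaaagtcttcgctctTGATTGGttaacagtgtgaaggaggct

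These stretches lie at chr17:34287847-34287933 on the minus strand for H2-Aa, and on the plus strand at chr17:34305746-34305832 for H2-Eb1, chr17:34153068-34153154 for H2-DMb1, chr17:34145097-34145183 for H2-DMb2 and chr17:34238786-34238872 for H2-Ob. H2-Oa and H2-Eb2, whose windows were also searched, had too few counts to be tested and are not shown. The Y box core began 50 bases before the RefSeq start of H2-Aa, 61 before that of H2-Eb1 and 63 before that of H2-DMb1. In H2-Eb1 the X1 box core began 27 bases before the Y box core, as in H2-Eb2, and in H2-DMb1 and H2-DMb2 the distance was 28 bases. H2-Aa had no X1 match in the stretch shown and had the cyclic AMP response element. The stretches of H2-DMb1 and H2-DMb2 were identical at 73 of 87 bases, those of H2-Eb1 and H2-Eb2 at 52 and those of H2-DMb1 and H2-Eb1 at 28, placed side by side without gaps. Among 32851 windows of 300 bases the Y box core was found in 7.82%, the X1 box core in 9.85%, both in 0.703% and the cyclic AMP response element in 1.79%. Neither box core was found in the windows of H2-DMa, which lie upstream of the start given for that gene in the count table. A match describes letters in a window and is not evidence of binding. In the RNA comparison below, H2-DMb1 was higher in tumors and H2-Eb1 was not called.

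Before the members, the libraries were checked against their labels. Umod, made by the thick ascending limb, had a median of 4219 CPM (counts per megacount of the normalized library) in normal kidneys and 0.736 in tumors, and Aqp2 of the collecting duct had 258 and 0. Pax8 itself, which drives the Cre, was not called between the groups (log2 fold change 0.29, SE 0.16, adjusted p 0.137). Of the edited genes, whose RNA need not fall after editing, Vhl (log2 fold change -0.49, adjusted p 0.00179) and Tsc1 (-0.61, adjusted p 0.00871) were lower in tumors, Keap1 was higher (0.83, adjusted p 1.3e-07), and Pbrm1 was not called (-0.28, adjusted p 0.23). Normal kidney 9 stood apart, with a TMM normalization factor of 0.749, where the remaining 9 of its group had 1.03 to 1.14. On the log2 scale its genes of at least 5000 bases were 1.41 lower against genes under 2000 bases than in the group mean (index -1.41), where the others of its group had 0.08 to 0.27. Normal kidneys 5, 7 and 8 also differed from the rest of their group. Their sums over the list of endosomal processing genes were 6581, 7559 and 6478 CPM, against 2412 to 3283 in the other 7, and their tubule marker sums were the 3 lowest of the group. They also had the 3 lowest values of H2-Ab1 (20.8, 13.8 and 24.5 CPM), H2-Aa, H2-Eb1, Cd74, H2-DMa and H2-DMb1, so low class II values among normal kidneys moved with these libraries. Tumor 7 stood apart by its leukocyte genes, given further on.

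The data show a split, in which 4 members were higher in tumors and 3 were not called. Tumors had more RNA for the invariant chain, for both chains of H2-DM and for the beta chain of I-A. A difference was not shown for the alpha chain of I-A, the unpaired H2-Eb1 or the transactivator, which does not show that they stayed the same. By edgeR's quasi-likelihood test over 15354 genes with Benjamini-Hochberg adjustment, 4 of 7 members were higher at an adjusted p under 0.05, against 23.6% of all genes tested, and 0 of 7 were lower, against 23.8%. None had an unadjusted p under 0.05 and a negative change, and DESeq2 and limma-voom also called 0 of 7 lower. Adjusted p-values of single genes below are from the same edgeR test. In 0 of 7 members was every tumor above every normal kidney, as in 5.87% of all genes, and in 0 of 7 was every tumor below, as in 4.74%. The median log2 fold change was 1.04 over the members and -0.02 over the genes tested. With so large a share of all genes called, the count of 4 says little about class II genes as a set, and what follows is about how the members differ from each other.

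**Figure D1:**
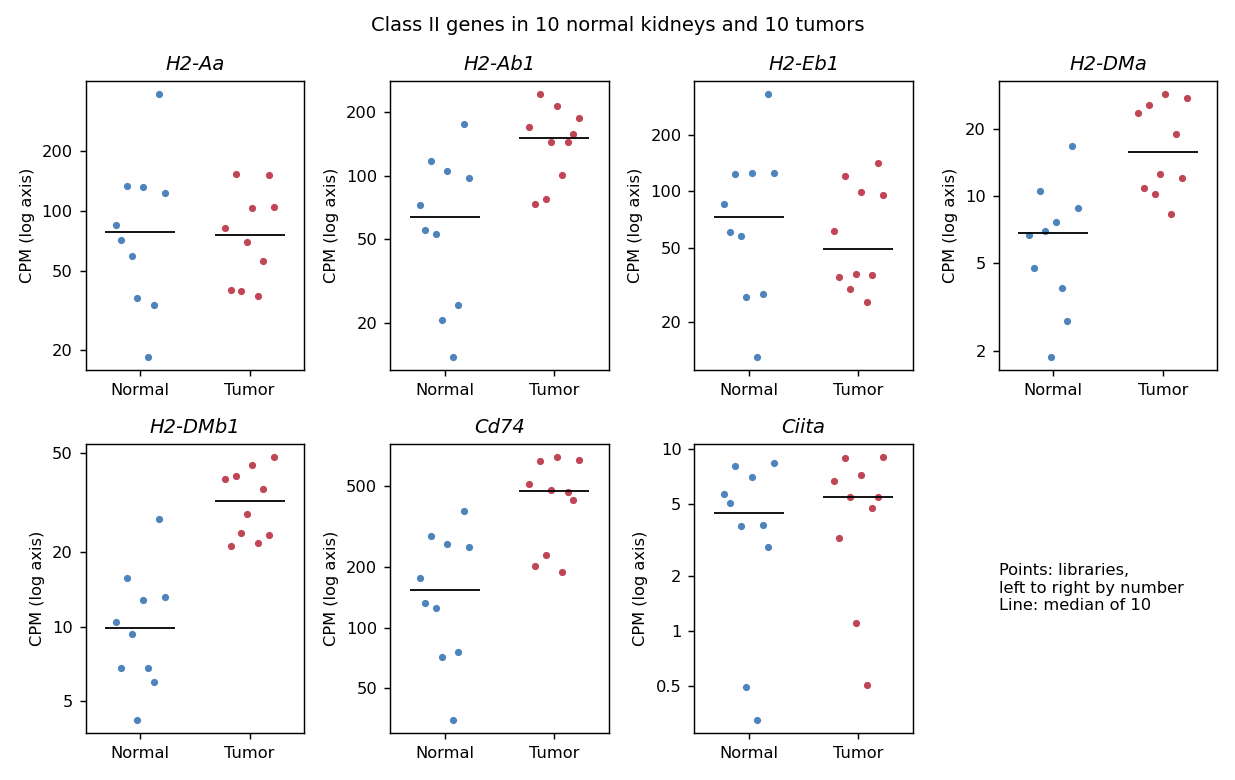
CPM of each member on a log axis in 10 normal kidneys (blue) and 10 tumors (red), with each point a library and each line the group median. Cd74, H2-DMa, H2-DMb1 and H2-Ab1 sit higher in tumors with overlap, while H2-Aa and H2-Eb1 reach lower and higher in normal kidneys than in tumors, Ciita covers similar ranges, and the lowest Ciita values, 0.329 and 0.5 CPM in normal kidneys and 0.512 and 1.11 in tumors, belong to the libraries numbered 7 and 5.

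H2-Aa, the alpha chain of I-A, had 37.2 CPM in the lowest tumor, a median of 75.4 and 152 in the highest, and in normal kidneys 18.4, 78.3 and 384. The medians nearly coincided, and normal kidney 9 held the highest value of all 20 libraries. Tumors averaged 83.4 ± 43.5 CPM and normal kidneys 108 ± 106 (SD, n = 10 each). The log2 fold change of H2-Aa was -0.37 (SE 0.43), with an adjusted p of 0.51. Its sign rested on 1 library, since without normal kidney 9 it was 0.11 (adjusted p 0.819).

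H2-Ab1, the beta chain that pairs with H2-Aa, had 73.5 CPM in the lowest tumor, a median of 151 and 244 in the highest, against 13.8, 64 and 176 in normal kidneys. All 10 tumors lay above the median of the normal kidneys and 3 lay above every normal kidney, so the groups overlapped. The means were 151 ± 56.2 CPM and 73.6 ± 51 (SD, n = 10 each). H2-Ab1 was higher in tumors, with a log2 fold change of 1.04 (SE 0.37) and an adjusted p of 0.0258, which was 2.06-fold.

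H2-Eb1, the beta chain of I-E, had 25.7, 48.9 and 142 CPM in tumors as lowest, median and highest, and 13, 73 and 330 in normal kidneys, where library 9 was again the highest. It was not called (log2 fold change -0.52, SE 0.47, adjusted p 0.381). The size of that value rested on normal kidney 9, without which it was -0.083 (adjusted p 0.885), and without tumor 7 as well it was -0.000903 (adjusted p 0.999). H2-Eb1, like H2-Aa and unlike the other beta chain, was not called.

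Cd74, the invariant chain that holds new class II pairs, had the highest mean and median CPM of the members in both groups. Tumors had 188 CPM at the lowest, a median of 474 and 696 at the highest, and normal kidneys had 35, 154 and 376. Of the 10 tumors 7 lay above every normal kidney, and the lowest of the other 3 were tumor 7 and tumor 2, at 188 and 202. Cd74 was higher in tumors (log2 fold change 1.35, SE 0.37, adjusted p 0.00456), with means of 454 ± 194 and 178 ± 110 CPM (SD, n = 10 each).

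H2-DMa and H2-DMb1, the chains of the peptide exchange factor, rose together. H2-DMa had 8.28 CPM in the lowest tumor, a median of 15.7 and 28.7 in the highest, against 1.88, 6.82 and 16.7 in normal kidneys. H2-DMb1 had 21, 32.1 and 48.2 in tumors against 4.21, 9.87 and 27.1 in normal kidneys. In both genes all 10 tumors lay above the median of normal kidneys, and normal kidney 9 was the highest of its group and overlapped the tumors. Their log2 fold changes were 1.34 (SE 0.34, adjusted p 0.00271) for H2-DMa and 1.54 (SE 0.28, adjusted p 0.000108) for H2-DMb1, the largest among the members. Of the 50-base stretches in annotated H2-DMb1 transcripts, 22.7% also occur in its neighbor and near-copy H2-DMb2, so that part of the H2-DMb1 count is uncertain, whereas the other 6 members shared 0.488% (H2-Aa) or 0 of their stretches with any other gene.

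Ciita, the transactivator, was low in every library. It had 0.512 CPM in the lowest tumor, a median of 5.43 and 9 in the highest, and 0.329, 4.42 and 8.38 in normal kidneys, or 12 to 208 counts per tumor and 9 to 163 per normal kidney. The groups covered similar ranges, and the libraries numbered 5 and 7 were the lowest of both groups. Ciita was not called (log2 fold change 0.20, SE 0.50, adjusted p 0.763). Between libraries of the same number the tumor had more Ciita in 9 of 10. With the library number as a block Ciita was not called either (log2 fold change 0.31, adjusted p 0.149). Dexi lies on the opposite strand and shares 329 of the 9535 exonic bases of Ciita, so a count that ignored strand would give Ciita some reads of Dexi, which had a mean of 13.4 CPM in tumors and 15.1 in normal kidneys.

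Levels of different genes can be compared only per length, here as CPM per kilobase of the gene length in the count table. In normal kidneys the order by mean was Cd74 (126 ± 78.1, SD, n = 10), H2-Eb1 (82.5 ± 77.7), H2-Aa (57.4 ± 56.4), H2-Ab1 (44.9 ± 31.1), H2-DMb1 (7.56 ± 4.48), H2-DMa (4.3 ± 2.65) and Ciita (0.476 ± 0.297). In tumors it was Cd74 (322 ± 138), H2-Ab1 (92.5 ± 34.3), H2-Eb1 (57.5 ± 36), H2-Aa (44.5 ± 23.2), H2-DMb1 (22 ± 6.86), H2-DMa (10.9 ± 4.85) and Ciita (0.547 ± 0.307). H2-Ab1 moved from the fourth place to the second, and the rest kept their order. The SDs of H2-Eb1, H2-Aa and H2-Ab1 overlapped in both groups, but library by library the order was firmer. H2-Aa exceeded H2-Ab1 per kilobase in 8 of 10 normal kidneys, H2-Ab1 exceeded H2-Eb1 in 9 of 10 tumors, and H2-Eb1 exceeded H2-Aa in 10 of 10 normal kidneys and 9 of 10 tumors. Cd74 was above the second gene in 9 of 10 normal kidneys and in 10 of 10 tumors.

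The split between the chains of I-A was sharper within libraries than between them. Ratios of all 21 pairs of members were compared between groups after the data had been seen, each as the log2 ratio of CPM per library, by a two-sided permutation test with 100000 resamples and adjustment over the 21. In 10 of 21 the ratio differed, and in 4 of them every tumor lay beyond every normal kidney. Those 4 set H2-Ab1 or Cd74 against H2-Aa or H2-Eb1. The log2 ratio of H2-Ab1 to H2-Aa was 0.06 in the lowest tumor, had a median of 1.01 and reached 1.43, and in normal kidneys it was -1.13, -0.35 and -0.15. It was positive in every tumor and negative in every normal kidney, and the lowest of each group was its library 9. The mean difference was 1.38 (p 1e-05, the smallest these resamples can give, adjusted p 5.25e-05). Leaving out any single library gave 1.30 to 1.48.

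Cd74 against H2-Aa gave the same picture, with a median log2 ratio of 2.59 and a highest of 3.07 in tumors, and -0.03 to 1.17 in normal kidneys and a mean difference of 1.56 (adjusted p 5.25e-05). Normal kidney 9, at -0.03, was far below the next normal kidney at 0.88. H2-Ab1 against H2-Eb1 differed by 1.57 and Cd74 against H2-Eb1 by 1.76 (adjusted p 5.25e-05 for each). H2-DMb1 and H2-DMa also gained on H2-Aa and H2-Eb1, by 1.49 to 1.91 (adjusted p at most 0.000682), with some overlap between groups.

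The ratio of H2-Aa to H2-Eb1 and those among H2-Ab1, Cd74 and the H2-DM chains were not called over all libraries. H2-Aa to H2-Eb1 differed by 0.19 (tumors 0.37 ± 0.28, normal kidneys 0.18 ± 0.18, SD, n = 10, adjusted p 0.12), H2-DMb1 to H2-DMa by 0.22 (adjusted p 0.0928) and Cd74 to H2-Ab1 by 0.18 (adjusted p 0.135). A p above the threshold does not show that these ratios are equal, and single libraries decided some of them. Cd74 to H2-Ab1 was called without tumor 7 (adjusted p 0.0178), without normal kidney 5 and without tumor 7 and normal kidney 9 together (difference 0.226, adjusted p 0.0299). H2-DMb1 to H2-DMa was called without normal kidney 5 (adjusted p 0.0407), and H2-DMb1 to H2-Ab1, not called over all libraries (0.33, adjusted p 0.198), was called without normal kidney 7 (adjusted p 0.0129). Ratios to Ciita passed the threshold narrowly for Cd74 (difference 1.19, adjusted p 0.0313) and H2-DMb1 (1.35, adjusted p 0.041), and not for H2-DMa (1.12, adjusted p 0.0608) or H2-Ab1 (1.01, adjusted p 0.0748). All 4 depended on single libraries. With 1 library left out the adjusted p was up to 0.0622 for Cd74 to Ciita and 0.0786 for H2-DMb1 to Ciita, and down to 0.0107 for H2-DMa to Ciita and 0.0195 for H2-Ab1 to Ciita. Without tumor 7 and normal kidney 9 both of the latter were called (differences 1.11 and 0.959, adjusted p 0.0408 and 0.0299). The ratio tests took no account of animals shared between the groups.

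**Figure D2:**
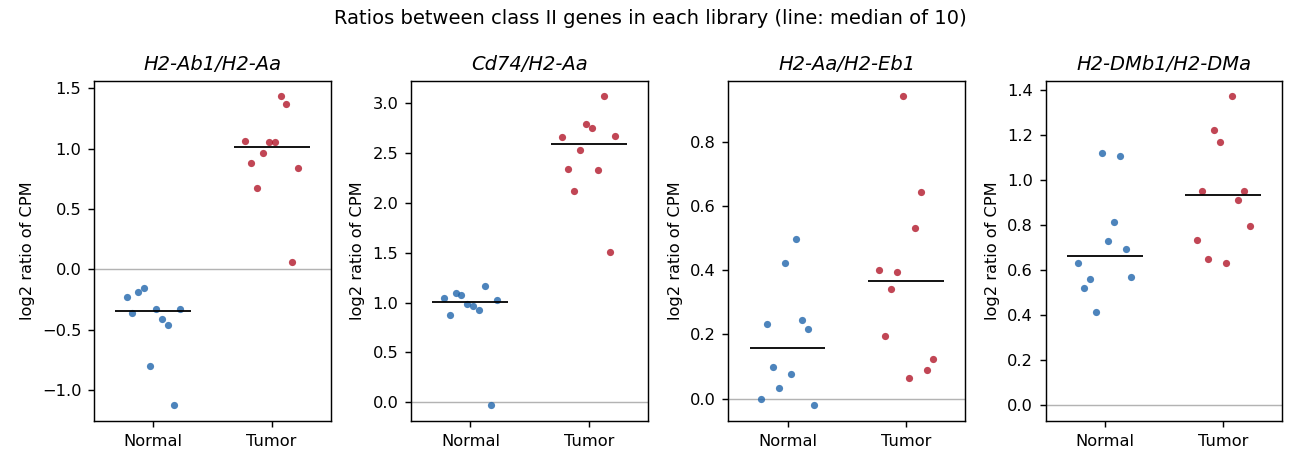
Log2 ratio of CPM of a pair of members in each of 10 normal kidneys (blue) and 10 tumors (red), with lines at group medians and a grey line at 0, on a vertical axis of its own in each panel. H2-Ab1 to H2-Aa (normal kidneys up to -0.15, tumors from 0.06) and Cd74 to H2-Aa (medians 1.00 and 2.59) separate the groups, while H2-Aa to H2-Eb1 and H2-DMb1 to H2-DMa overlap.

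Most members moved together across the libraries of a group, more closely in normal kidneys than in tumors, which is given as a description. In the 10 normal kidneys the Pearson correlation of log2 CPM was 0.97 between H2-Aa and H2-Ab1, 0.99 between H2-Aa and H2-Eb1 and 0.99 between H2-Ab1 and Cd74. In the 10 tumors the same pairs gave 0.88, 0.96 and 0.94, and H2-DMa and H2-DMb1 gave 0.97. Lower in tumors were H2-Eb1 with H2-DMb1 (0.55), H2-Aa with H2-DMb1 (0.59), and H2-Eb1 and H2-Aa with H2-DMa (0.66 each). Against the other members Ciita gave 0.49 to 0.74 in tumors and 0.54 to 0.78 in normal kidneys, where every pair without Ciita gave at least 0.84.

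The protein-coding genes below were those most like the mean of the members, each centered on its group mean over 20 libraries. They were Akr1b10 (r 0.92), Wdpcp (0.88), Dmac2 (0.88), Lrpap1 (0.87), Tmem35b (0.87), Hist1h2be (0.87), Lilra5 (0.87), Eif4a2 (0.87), H2-DMb2 (0.87) and Slamf7 (0.87). The likeness was closer in normal kidneys than in tumors, as for Akr1b10 with 0.99 and 0.80. These genes were picked as the highest r among all protein-coding genes tested, so high values follow in part from the choice. The points share their libraries. Among these are normal kidneys 5, 7 and 8, lowest in H2-Ab1, and normal kidney 9, highest in H2-Ab1 of its group. Whether the likeness reflects these libraries was not tested.

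H2-Ab1 was set against 8 genes within each group, which made 16 relations, by Pearson's r and Spearman's rho of log2 CPM with permutation p (100000 resamples) adjusted over the 16. In normal kidneys H2-Ab1 followed the B cell gene Cd79a (r 0.90, p 0.00046, adjusted p 0.00736, rho 0.85, p 0.00281, adjusted p 0.015), and r was 0.75 without the 2 libraries farthest from the median of H2-Ab1. It also followed the T cell gene Cd3e (r 0.84, p 0.00263, adjusted p 0.021, rho 0.90, p 0.00069, adjusted p 0.011, r 0.71 without the 2) and the macrophage gene Adgre1 (r 0.73, p 0.00721, adjusted p 0.0356, rho 0.85, p 0.00244, adjusted p 0.015, r 0.78 without the 2). With Ciita the relation in normal kidneys had r 0.77 (p 0.00891, adjusted p 0.0356) and rho 0.61 (p 0.0672, adjusted p 0.108). Its r fell to 0.24 without libraries 7 and 5, and so the relation rests on them. Normal kidneys 5, 7 and 8, lowest in H2-Ab1, also had the lowest summed B cell markers (1.69, 0.95 and 1.95 CPM). Their summed T cell markers (1.44, 0.511 and 1.42 CPM) were the lowest as well. Normal kidney 8 stayed in the check, as did normal kidney 9, highest in H2-Ab1 (176 CPM). Whether the relations with Cd79a, Cd3e and Adgre1 hold without all of these libraries was not tested.

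In tumors no relation passed by Pearson's r. By rank, H2-Ab1 followed Ciita (rho 0.83, p 0.00487, adjusted p 0.0195). The Pearson value was 0.49 (p 0.145, adjusted p 0.211), and was 0.86 without tumors 2 and 4. Adgre1 gave r 0.03 in tumors (p 0.942, adjusted p 0.942, rho 0.18, p 0.631, adjusted p 0.631), and Ptprc, the pan-leukocyte gene Cd45, gave 0.18 (p 0.614, adjusted p 0.655, rho 0.41, p 0.247, adjusted p 0.28). Ptprc did not pass in normal kidneys either (r 0.40, p 0.243, adjusted p 0.3, rho 0.41, p 0.246, adjusted p 0.28). Whether a relation differed between tumors and normal kidneys was not tested.

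The marker lists of leukocytes did not move as a block either, and their part in the class II values was not tested. Of 5 pan-leukocyte markers 2 were higher and 0 lower in tumors, and of 9 macrophage markers 6 were higher and 0 lower. Over all genes tested 23.6% were higher and 23.8% lower, and the counts of every list, here and below, stand beside these shares. No list was tested as a set. The pan-leukocyte count was unstable, at 1 with DESeq2 and 0 with limma-voom or without tumor 7, and the macrophage count was 4 to 8 when 1 library was left out. The pan-leukocyte sums had medians of 66.4 CPM in tumors (39.5 to 355) and 66 in normal kidneys (43.1 to 96.6), with Laptm5 highest in tumors and Coro1a in normal kidneys. The summed level of the macrophage markers had a median of 437 CPM in tumors (280 to 1579) and 185 in normal kidneys (125 to 498), with Cd68 the gene of highest CPM in tumors and Csf1r in normal kidneys. Cd68 rose most (log2 fold change 3.48, adjusted p 8.37e-06), and Adgre1 (1.04, adjusted p 0.0116) and Mrc1 (2.05, adjusted p 0.00446) also rose. Mrc1 was uneven among tumors, with a median of 18.8 CPM and a highest value of 270, so the size of its change leaned on the highest tumor. Its median in normal kidneys was 13 CPM. Ptprc was not called (0.31, adjusted p 0.407).

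Some genes of dendritic and B cells were lower. Of 5 dendritic cell markers tested 3 were lower and 0 higher, among them Flt3 (log2 fold change -2.34, adjusted p 0.000195), which was below every normal kidney in 10 of 10 tumors, Clec9a (-1.41, adjusted p 0.00176) and Zbtb46 (-0.73, adjusted p 0.000204). Itgax (0.67, adjusted p 0.0974) and Cd209a (-1.01, adjusted p 0.22) were not called. Summed over the list of 8, with Zbtb46 the most abundant, the median was 15.6 CPM in tumors (9.85 to 24.6) and 20.8 in normal kidneys (16.6 to 32.2). Only Cd79b of the 6 B cell markers had counts enough to be tested, and it was lower (-1.99, adjusted p 0.000707). The B cell sums had medians of 1.98 CPM in tumors (0.332 to 3.47) and 5.64 in normal kidneys (0.95 to 10), with Cd22 highest in tumors (mean 0.554 CPM, against 0.476 in normal kidneys) and Cd79b in normal kidneys.

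T cell markers were near the limit of detection, with Cd3d, Cd3e and Cd3g not tested, Cd8a narrowly lower (-1.35, adjusted p 0.045, a call that ended with limma-voom or on leaving out any of 10 single libraries) and Trac not called (0.85, adjusted p 0.211). Trac was the most abundant of the 5, and the sums had medians of 3.34 CPM in tumors (0.664 to 8.95) and 4.81 in normal kidneys (0.511 to 11.2). Cd4 (-0.76, adjusted p 0.169) and Lag3 (-0.18, adjusted p 0.647), whose products bind class II molecules, were not called, although Cd4 was lower with weighted limma-voom and with the library number as a block, and the other 3 genes of their list were not tested. Neutrophil markers had 0 of 3 tested called and were led by S100a9, with a median sum of 1.87 CPM in tumors (0.627 to 362) and 4.05 in normal kidneys (1.26 to 30.4). Of 4 endothelial markers, led by Pecam1, 1 was higher and 0 lower, with median sums of 256 CPM in tumors (178 to 575) and 304 in normal kidneys (237 to 336). With the library number as a block 0 endothelial markers were higher. With library totals 0 were higher and 1 was lower. Of 8 kidney tubule markers, led by Umod in normal kidneys and by Lrp2 in tumors, 3 were lower and 0 higher, with median sums of 5505 CPM (1023 to 8115) and 12516 (5350 to 15344). With 23.6% of all genes tested higher and 23.8% lower, such small counts say little about either list.

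**Figure D3:**
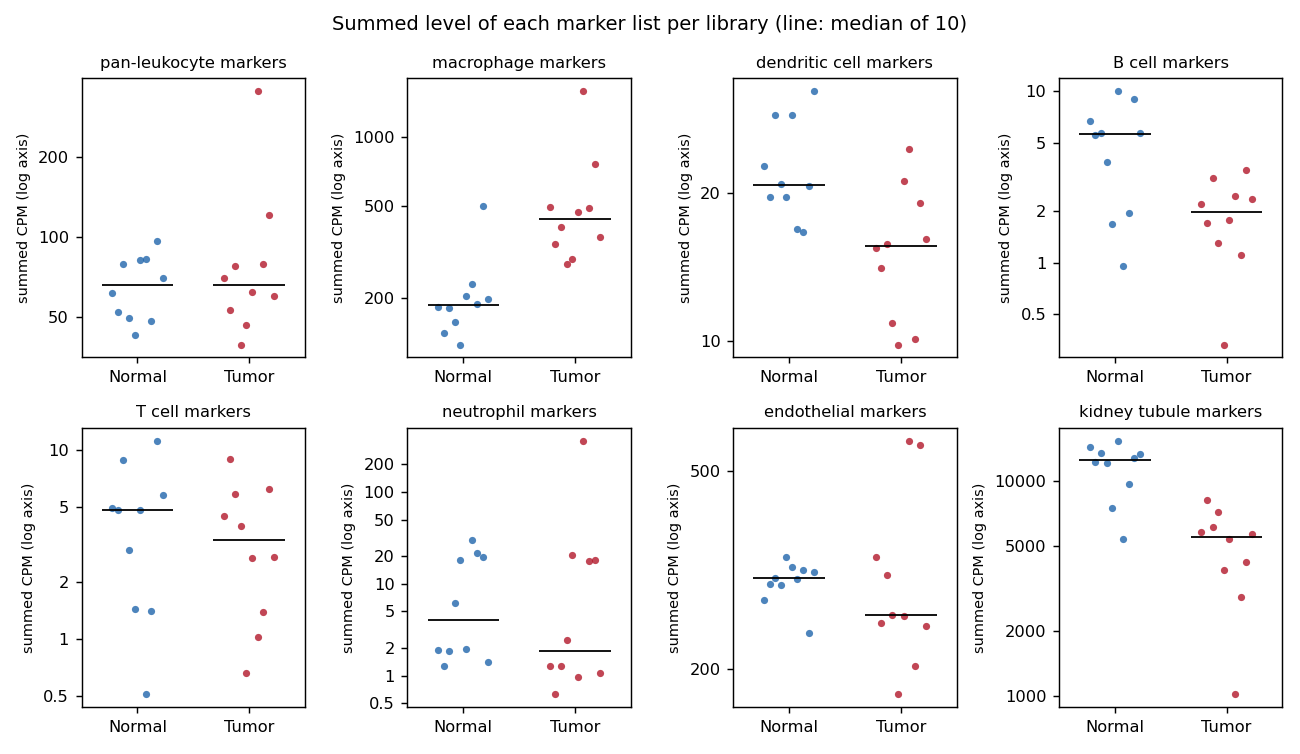
Summed CPM of each marker list on a log axis, in 10 normal kidneys (blue) and 10 tumors (red), with each point a library and each line the group median. Macrophage markers sit higher in tumors (median 437 against 185) and dendritic cell (15.6 against 20.8) and B cell markers (1.98 against 5.64) sit lower, and the highest macrophage sum, 1579, is tumor 7.

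Tumors 7 and 9 had the highest Ptprc and Adgre1, and differed in class II RNA. Ptprc stood at 36.5 CPM in tumor 7 and 27.8 in tumor 9, against 6.64 to 19 in the other 8 tumors, and Adgre1 at 32.6 and 31.1. Tumor 7 had 101 CPM of H2-Ab1 and 188 of Cd74, both below the medians of tumors. Tumor 9 had 157 and 427, the latter also below the tumor median of 474. Its H2-DMa (12 CPM) and H2-DMb1 (23.4 CPM) lay below the tumor medians of 15.7 and 32.1 as well. It had the highest H2-Eb1 of the tumors (142) and, after tumor 3, the highest H2-Aa (151).

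Each member was also set against 4 leukocyte genes, Ptprc, Adgre1, Flt3 and Cd79a, as a log2 ratio per library, with the same permutation test adjusted over the 28 ratios, of which 19 were called. Against Flt3 and against Cd79a all 7 members were higher in tumors, by 1.89 (H2-Eb1 to Flt3) to 3.79 (H2-DMb1 to Flt3) for Flt3 and 1.53 (H2-Eb1) to 3.44 (H2-DMb1) for Cd79a. H2-Ab1 to Flt3 had log2 ratios of 7.79 to 9.86 in tumors and 3.78 to 6.46 in normal kidneys (difference 3.46, adjusted p 3.5e-05). Flt3 and Cd79a had 0 to 15 and 0 to 19 counts per tumor, so the size of these ratios depends on the prior count. Both denominators were themselves scarcer in tumors. The log2 fold change of Flt3 was -2.34, and Cd79a averaged 0.286 CPM in tumors and 1.28 in normal kidneys. A member of unchanged level would thus also come out higher against them, so these calls do not show a rise of the member.

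Against Ptprc 4 of 7 members were higher, the same 4 as by level, namely H2-Ab1 (difference 1.11, adjusted p 0.0346), H2-DMa (1.22, adjusted p 0.0253), H2-DMb1 (1.44, adjusted p 0.00819) and Cd74 (1.29, adjusted p 0.0253). The first of these lost its call when any of 9 single libraries was left out, with an adjusted p of up to 0.0639. Against Adgre1 0 of 7 were higher and 1 of 7, H2-Eb1, was lower (difference -1.18, adjusted p 0.031), a call that also ended on leaving out single libraries (adjusted p up to 0.0589). Leaving out tumor 7 or tumor 9 called H2-DMb1 to Adgre1 higher (adjusted p down to 0.0181), and leaving out any of 4 libraries called H2-Aa to Adgre1 lower (adjusted p down to 0.0277). H2-Ab1 to Adgre1 averaged 3.46 ± 1.01 in tumors against 3.06 ± 0.83 in the other group (SD, n = 10, adjusted p 0.4), and Cd74 to Adgre1 was 4.99 ± 1.22 and 4.41 ± 0.80 (adjusted p 0.282). Over all 20 libraries the 4 members were thus called higher against a pan-leukocyte gene and not against a macrophage gene, and whether those results differ was not tested. Without tumor 7 and normal kidney 9, H2-DMa, H2-DMb1 and Cd74 were higher against Adgre1 too (differences 0.88, 1.05 and 0.96, adjusted p 0.0262, 0.00849 and 0.0365).

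The other class II genes were scarce. H2-DMb2, the near-copy of H2-DMb1, had a median of 1.89 CPM in tumors and 1.13 in normal kidneys and was not called (log2 fold change 0.75, adjusted p 0.24). H2-Oa and H2-Ob encode the chains of H2-O, which restrains H2-DM and is known mainly from B cells. H2-Ob had a median of 0.34 CPM in tumors (0.0427 to 1.51) and 1.37 in normal kidneys (0.248 to 2.42), with a log2 fold change of -1.28 (SE 0.52) and an adjusted p of 0.0503. It was lower at an adjusted p under 0.05 with each of the other normalizations tried, by DESeq2, by limma-voom with quality weights and with the library number as a block, and without normal kidney 5, 7 or 8 or tumor 3, 9 or 10. H2-Oa fell under the filter, with 0 to 6 counts per tumor (16 in all) and 2 to 40 per normal kidney (135 in all). H2-Eb2 had 21 counts in all tumors and 51 in all normal kidneys, and was not tested. H2-Ea-ps, the disabled alpha chain gene of I-E, had 0 counts in all 20 libraries.

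The H2 members, 5 of the 7, lie within one region of chromosome 17. Between H2-Oa and H2-Eb2 the table lists 19 genes, of which 12 were tested, 6 were higher in tumors and 0 lower. The shares over all genes tested were 23.6% and 23.8%. The lower coordinates of H2-Aa and H2-Eb1 lie 19.5 and 42.7 kb above that of H2-Ab1, and neither was called. At the other end H2-DMa and H2-DMb1, 128 and 110 kb before it, were higher, as were the class I processing genes Psmb9, Tap1 and Psmb8 between them and H2-Ab1. H2-Ob, 24.3 kb before H2-Ab1, had the lowest log2 fold change of the 12 and was close to being called lower. The higher genes were thus neighbors of genes that were not.

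**Figure D4:**
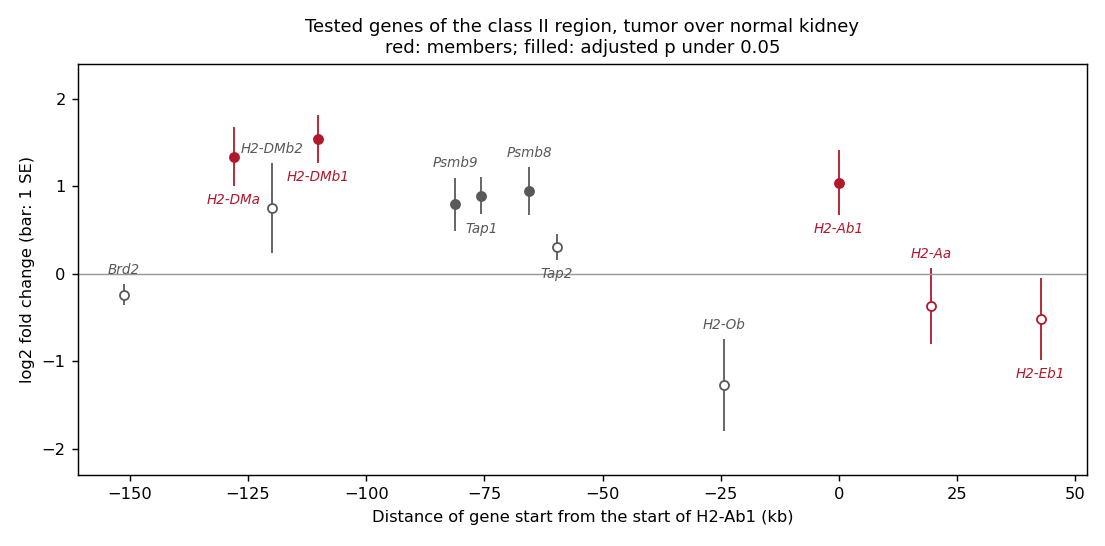
Log2 fold change, tumor over normal kidney, of the 12 tested genes of the class II region (10 libraries per group, bars 1 SE) against the distance of each gene's lower coordinate from that of H2-Ab1 in kb. Members are red, and filled points passed an adjusted p of 0.05, among them H2-Ab1 at 1.04, while H2-Aa at -0.37 and H2-Eb1 at -0.52 beside it did not.

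Upstream of the class II genes, the receptor and kinases of interferon gamma signaling were higher with TMM factors. None of the DNA-binding partners of Ciita was called higher with them. Ifngr1 (log2 fold change 1.23, adjusted p 1.17e-05) and Ifngr2 (1.66, adjusted p 1.36e-07), the chains of the receptor, were above every normal kidney in 10 of 10 tumors. Jak1 (0.53, adjusted p 0.00394) and Jak2 (0.30, adjusted p 0.0478) rose less, the latter call ending with DESeq2 and on leaving out any of many single libraries, and Irf1 was not called (0.22, adjusted p 0.422) except with the library number as a block. Ifng itself had 2 counts in all tumors and 5 in all normal kidneys, and no difference was detectable at this depth. Of the 6 genes tested in the list from interferon gamma to Ciita, 5 were higher. The count depended on normalization, at 4 with DESeq2 size factors or upper quartile factors and 3 with library totals. Library totals in place of normalization factors shifted the median over the genes tested from -0.02 to -0.14 in log2 fold change.

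Of 7 partners at class II promoters 0 were higher and 3 lower, against 23.6% and 23.8% of all genes tested. The 3 were Nfyc (-0.82, adjusted p 0.000118), Creb1 (-0.42, adjusted p 0.0315) and Nfyb (-0.26, adjusted p 0.0414). Rfx5 (0.42, adjusted p 0.0528), Rfxank (-0.32, adjusted p 0.0642), Rfxap (-0.07, adjusted p 0.704) and Nfya (0.18, adjusted p 0.278) were not called. The lower calls of Nfyb and Creb1 ended on leaving out any of several single libraries, so that 1 to 4 of the 7 were lower. Rfx5 was close to the threshold, and was called higher with DESeq2, with limma-voom, weighted or not, with the library number as a block, and without normal kidney 5 or 8 or tumor 7. Rfxank was called lower with DESeq2, with each of the other normalizations and with weighted limma-voom.

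Downstream, all 7 genes tested for the processing of invariant chain and antigen in endosomes were higher and 0 lower, with a median log2 fold change of 1.70. Of all genes tested 23.6% were higher. The count of higher genes in the list fell to 6 with upper quartile normalization factors, and likewise without normal kidney 1. The cathepsin genes Ctsb (2.89, adjusted p 2.96e-09), Ctsl (2.01, adjusted p 1.59e-05) and Ctsd (1.77, adjusted p 4.61e-05) and the legumain gene Lgmn (1.70, adjusted p 2.43e-06) rose more than Ctss (0.96, adjusted p 0.00629), the cathepsin gene best known for invariant chain cleavage in antigen-presenting cells. Sppl2a (1.00, adjusted p 1.97e-06) and Ifi30 (0.51, adjusted p 0.0246) also rose. These genes serve lysosomes in many cell types, and Ctsb averaged 8816 ± 2242 CPM in tumors against 1185 ± 537 in the controls (SD, n = 10).

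Genes that act on class II at the cell surface were not called, namely March1 (0.43, adjusted p 0.163), March8 (-0.25, adjusted p 0.0754) and Cd83 (-0.24, adjusted p 0.679). March8 was called lower with DESeq2, with each of the other normalizations and with weighted limma-voom. Of 4 genes tested in a list of costimulation and checkpoint genes, Cd274 was higher (0.91, adjusted p 0.00581). It encodes the immune checkpoint protein PD-L1 and is not a costimulatory gene. Icosl was lower (-1.36, adjusted p 7.66e-05), and Cd86 and Cd40 were not called (0.29 and -0.46, adjusted p 0.511 and 0.151).

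Genes of class I presentation were also higher. Of its 11 genes 8 were higher and 0 lower, against 23.6% and 23.8% of all genes tested. The median log2 fold change was 0.89, and 7 to 10 were higher when 1 library was left out. B2m (2.79, adjusted p 1.08e-08), H2-D1 (2.63, adjusted p 8.46e-11), H2-K1 (2.23, adjusted p 3.98e-09) and Tapbp (1.15, adjusted p 4.1e-08) were above every normal kidney in 10 of 10 tumors, which held for 0 of the 7 class II members and for none of the other 7 class I genes. Nlrc5, the class I counterpart of Ciita, had a log2 fold change of 0.63 and an adjusted p of 0.053. The difference between the class I and class II lists was not tested.

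**Figure D5:**
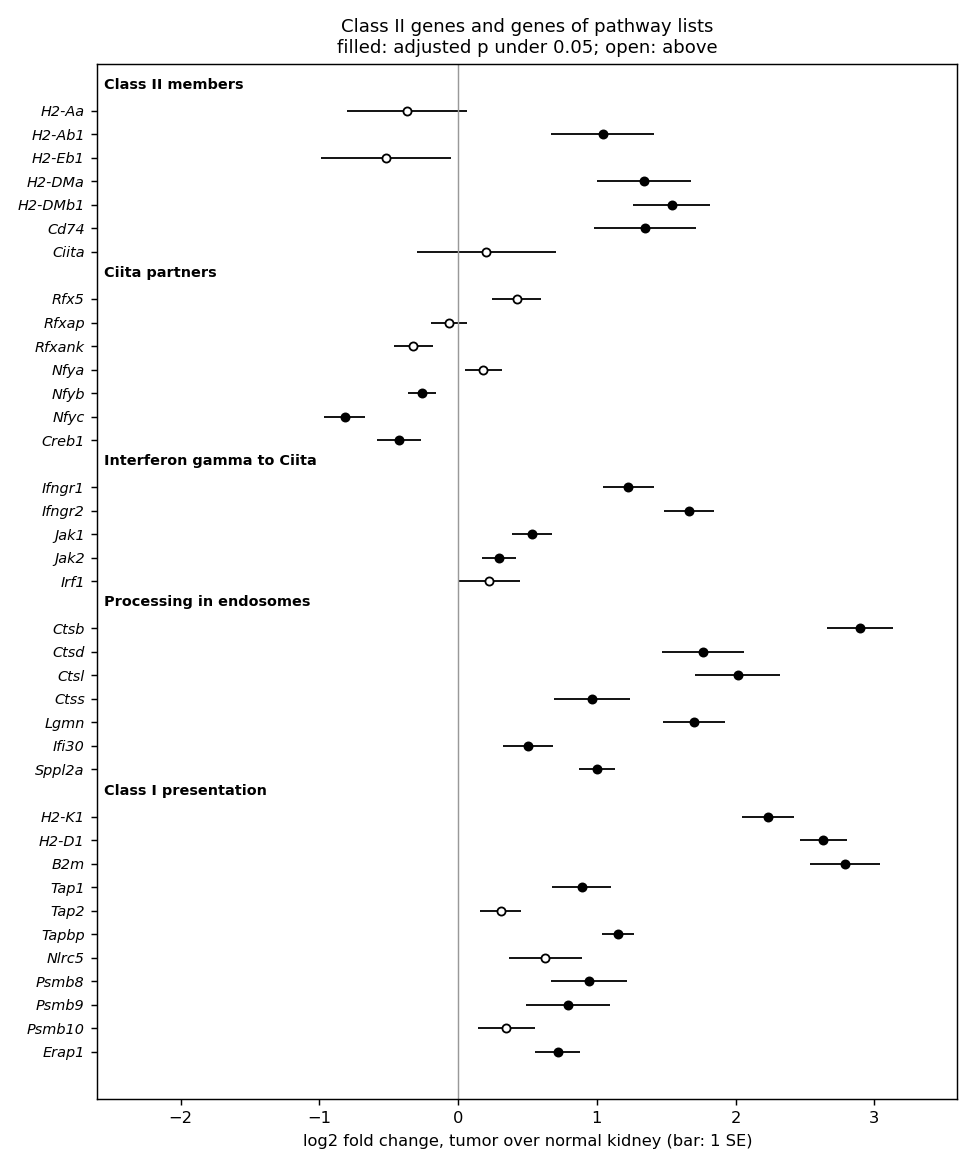
Log2 fold change, tumor over normal kidney, of the members and of genes from 4 lists (10 libraries per group, bars 1 SE, filled points at an adjusted p under 0.05). The members split between 1.04 to 1.54 for the 4 filled points and -0.52 to 0.20 for the 3 open ones, while the 7 endosomal genes and 8 of the 11 class I genes are filled and to the right of 0.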

How the data were processed

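The authors deposited raw counts per gene, with the lengths of the genes, for 10 tumors and 10 normal kidneys. The submitters' processing notes name the build mm10. The aligner, the counting tool and the use of strand are not given in the sources used here. Members and lists were chosen with earlier results of these data known. Counts were scaled by TMM factors and tested with edgeR 4.0.16 (quasi-likelihood test, count minimum 10, no covariate, Benjamini-Hochberg adjustment). Single libraries are given in CPM, and ratios and correlations use log2 CPM with a prior count of 2. P-values measure the spread between these libraries. Besides the members, every gene of a list of up to 8 could be named, and of longer lists the 4 called genes of largest absolute change, the 2 most abundant and the markers used in ratios. Of the class I list, Nlrc5 was named outside this rule, as were the edited genes, Dexi and the genes of the class II region, after their values were seen. Among 90 within-group pairs of libraries the smallest chi-square over its degrees of freedom was 13.98, so none appeared to be present more than once. Normalization, filter, test (DESeq2 1.42.0, limma 3.58.1, R 4.3.3) and libraries left out were varied, and ratios between members were added after the data were seen. Some results are not reported here.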

Additional observations from a re-analysis of the deposited data

Results flagged for a closer look

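A library was singled out where its gap to the next, over the range of its group, passed Dixon's 95% critical value for 10 values. This was done for the log2 CPM of the members and the log2 ratios of their pairs, 56 groups of values in all, of which 12 passed. Chance alone singles out about 1 in 20 such groups, and the ratios share genes and libraries. None of the 12 was the level of a single member.

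Normal kidney 7 had the lowest ratio of its group for Cd74 to H2-DMb1 (2.34, the next 3.64) and Cd74 to H2-DMa (3.16, the next 4.14). It had the highest for H2-DMb1 to H2-Ab1 (-1.01, the next -2.01), H2-DMb1 to H2-Eb1 (-0.92, the next -2.22), H2-DMa to H2-Ab1 (-1.83, the next -2.91) and H2-DMa to H2-Eb1 (-1.74, the next -3.04). It was also the normal kidney with the lowest H2-Aa, H2-Ab1, H2-Eb1, Cd74 and Ciita.

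Normal kidney 9 had the lowest ratio of Cd74 to H2-Aa (-0.032, the next 0.88), Cd74 to H2-Eb1 (0.19, the next 1.01) and H2-Ab1 to H2-Eb1 (-0.91, the next -0.38). Tumor 9 had the lowest ratio of H2-DMa to H2-Aa (-3.63, the next -2.57) and H2-DMa to H2-Eb1 (-3.55, the next -2.23). Tumor 7 had the lowest ratio of Cd74 to H2-Ab1 (0.90, the next 1.44).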

How the results depend on the processing

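Each member was recomputed under 29 alternatives of normalization, filter, test, replicate block and libraries left out. H2-Ab1, H2-DMa, H2-DMb1 and Cd74 remained called higher under all 29, with the highest adjusted p 0.0484 for H2-Ab1, and H2-Eb1 and Ciita remained not called. H2-Aa was not called under any, but its log2 fold change turned to 0.11 without normal kidney 9 and to 0.18 without tumor 7 and normal kidney 9 together, and ranged from -0.50 to 0.11 over single libraries left out. By the study's limits, a log2 fold change beyond 1 and a p under 0.001, read here as unadjusted because the study does not say, 2 members were higher, H2-DMa and H2-DMb1, and over all genes 1359 were higher and 1571 lower, because these limits are stricter.

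The groups share a cohort of 10 mice, but same-numbered libraries are not said to be pairs. The correlation of their deviations from the group means was -0.14 for number 9 and 0.19 to 0.38 for the other 9, and 5 of 10 normal kidneys correlated best with the tumor of their own number. Neutrophil marker sums were 17.7 to 362 CPM in libraries 5, 7, 8 and 9 of both groups and at most 6.14 in all others. With the number as a block the members' log2 fold changes were -0.0566 for H2-Aa, 1.31 for H2-Ab1, -0.25 for H2-Eb1, 1.45 for H2-DMa, 1.68 for H2-DMb1, 1.51 for Cd74 and 0.31 for Ciita, 4 were called higher and 0 lower, and of the 79 genes tested in the other 16 lists 35 were higher and 14 lower, against 30 and 12 without it. With the block 11 of 11 class I genes, 8 of 9 macrophage and 0 of 5 pan-leukocyte markers were higher, Irf1 was higher, H2-Ob was lower, and Nfyb was no longer lower. Rfx5 was also higher and Cd4 lower with it. Of 8 kidney tubule markers 1 was then higher and 4 lower, and of 4 endothelial markers 0 were higher.

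With limma-voom and quality weights 21 of the list genes were lower. Of the 16 correlations 4 passed by Pearson's r, and 2 with library totals. The ratio of Ciita to Ptprc, not called at 0.10, changed sign without tumor 4 (-0.0135), tumor 10 (-0.0443), normal kidney 5 (-0.098) or normal kidney 7 (-0.202). Its highest value was 0.559 over single libraries left out, and it was 0.644 without tumor 7 and normal kidney 9. The ratio of H2-Aa to Ptprc became 0.0899 without normal kidney 9 (lowest -0.470 over single libraries) and 0.353 without tumor 7 and normal kidney 9, that of H2-Eb1 to Ptprc became 0.175 without the latter pair, and that of Cd74 to H2-DMa, an alternative added after the data were seen, became -0.0859 without normal kidney 7 (highest 0.139). The cause was not tested. Of 21 ratios between members 8 to 14 were called over single libraries left out. Ciita, Flt3, Cd79a and Ifng are limited by depth, and intervals of their counts would cover counting error only.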
